A study of Mus musculus with 11 samples.

Results

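The 5 PyMT/SIRT6 mammary tumours differed from each other most widely in skeletal muscle genes. They also differed in genes of salivary-type and milk secretion, of the interferon response and of glycolysis, and in a few genes of fat. Genes of the respiratory chain and the mitochondrial ribosome differed by a small step that many of them shared. The 5 tumours were taken by their genotype label from the 11 tumours of the series. Each is a mammary tumour of a female mouse aged 12 weeks that carries the polyoma middle T transgene (PyMT) and also Sirt6BAC, an allele that adds Sirt6 on a bacterial artificial chromosome and overexpresses functional SIRT6 protein. Both alleles are shared by all 5 tumours, so the differences described here lie within a single genotype, and the 6 PyMT tumours without the added allele were not used. Each tumour was read on a single Illumina Mouse WG-6 v2.0 array. The sources used here do not give the promoter behind the PyMT transgene, the number of added Sirt6 copies or how the gland was dissected. The sample titles begin with 5 different numbers, but the labels do not say what these mark, so the spread described here is that between samples, which may hold mouse, gland, dissection and array. The tumours are called tumour 1 to tumour 5 in deposit order, which carries no meaning.

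Polyoma middle T binds Src-family kinases and phosphoinositide 3-kinase and turns the mammary epithelium into tumours that can still make milk proteins. A mammary tumour of the mouse grows in a fat pad beside skin, body wall muscle and, in the neck, salivary glands, and it holds macrophages, fibroblasts, vessels and blood beside the epithelium. SIRT6 is an NAD-dependent deacylase of histones that is known to hold down the transcription of glycolytic genes. In such bulk samples fewer cells of a type and less RNA per cell cannot be told apart.

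Values are log2 of the deposited probe intensities, with 1 probe per gene, the one of highest mean. Of 19057 genes, 5307 had a mean intensity above 300 over the 5 tumours. The array's median probe lay between 157.5 and 157.6 in each tumour and is here the measure of dim. A gene can pass 300 through the tumours where it is high alone. No background subtraction was visible in the deposited values, so folds of genes that reach such dim values may be smaller than the change in RNA. The standard deviation over the 5 tumours (SD, n = 5) chose the genes described, and with a single group there is no comparison to test: everything below is a description.

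Most genes varied little. The median SD was 0.193 on the log2 scale, and the middle 50% of genes lay between 0.133 and 0.280. An SD above 1 was found for 55 genes (1.04% of the 5307) and an SD above 0.5 for 265 (4.99%). At the other end stood Cdk13, a kinase that phosphorylates RNA polymerase II, with log2 intensities of 8.60, 8.57, 8.59, 8.61 and 8.60 in tumours 1 to 5 (SD 0.017), followed by Dele1 (0.023), Ttc5 (0.024), the ribosomal protein gene Rps29 (0.024) and the kinase gene Stk25 (0.024). Just inside the intensity limit lay Cuedc2 (300.06) and Cdan1 (300.15) and just outside it Rsph3a (299.9) and Ppp6r1 (299.8). Cmya5 and Hbb-bs (SD 1.02 each) were just inside the upper SD limit, and H2-Q8 and Hba-a1 (0.996 each) just outside. At the lower SD limit Clk4 and Ckb (0.501 each) were inside and Tgfbr2 (0.499) and Gpnmb (0.498) outside. The plot of spread against level places the most variable lists among these genes.

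**Figure D1:**
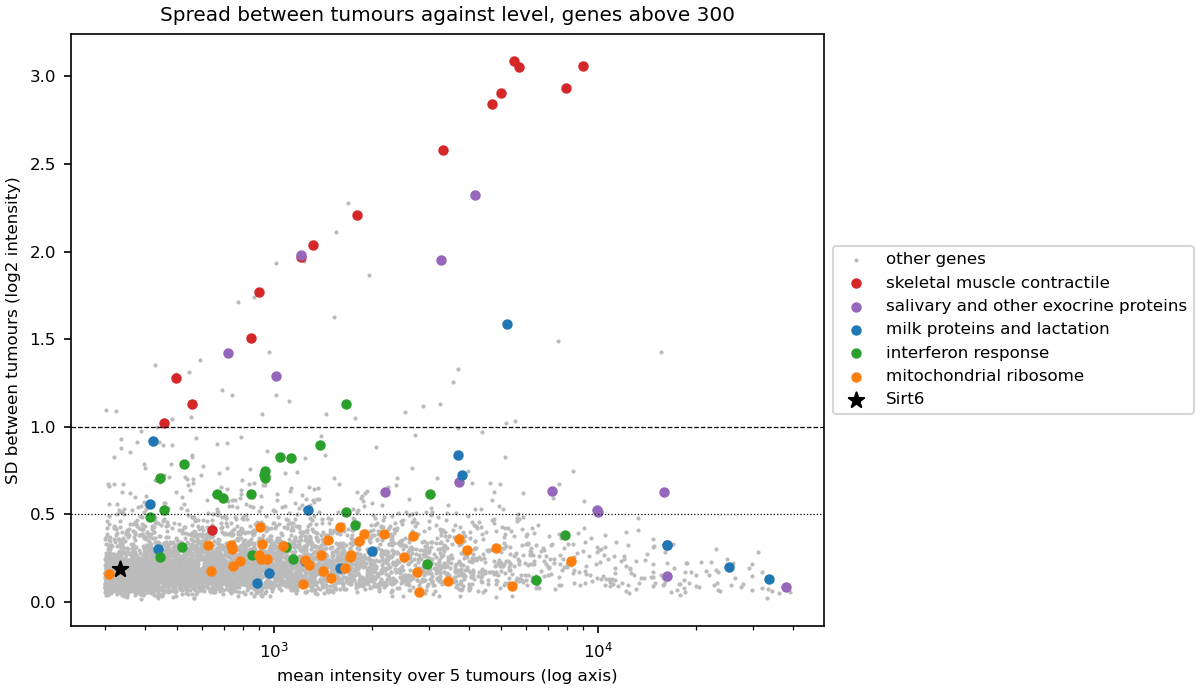
SD between the 5 tumours (log2 intensity) of each of the 5307 genes above 300 against its mean intensity on a log axis. The dashed line marks an SD of 1 and the dotted line 0.5. Contractile genes of muscle lie highest, up to 3.09, while Sirt6 lies at 0.19 and every mitochondrial ribosome gene below 0.5.

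Tumour 2 stood apart from the others. It held 37.9% of the summed squared deviations from the gene means, against 11.7% to 20.5% in each other tumour, and it was the highest tumour for 38.6% of genes and the lowest for 31.1%. Across the 5307 genes its array correlated with the others at r = 0.907 to 0.937, whereas tumours 4 and 5 correlated at 0.983. Genes are not independent replicates, and these coefficients describe the arrays. Of the variance, 54.2% fell on a first principal component that put tumour 2 (0.80) against tumours 4 (−0.42) and 5 (−0.40). The second held 25.5% and set tumour 3 (0.88) apart, and the third held 13.8%, with tumour 1 (0.81) against tumour 5 (−0.53). Of the 265 genes with an SD above 0.5, the widest gap between neighbouring tumours left tumour 2 alone on the high side in 54 and alone on the low side in 57. Without tumour 2, 149 genes had an SD above 0.5. The SD of a list described here is therefore also given without tumour 2 where it moved by over 1.5 times.

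**Figure D2:**
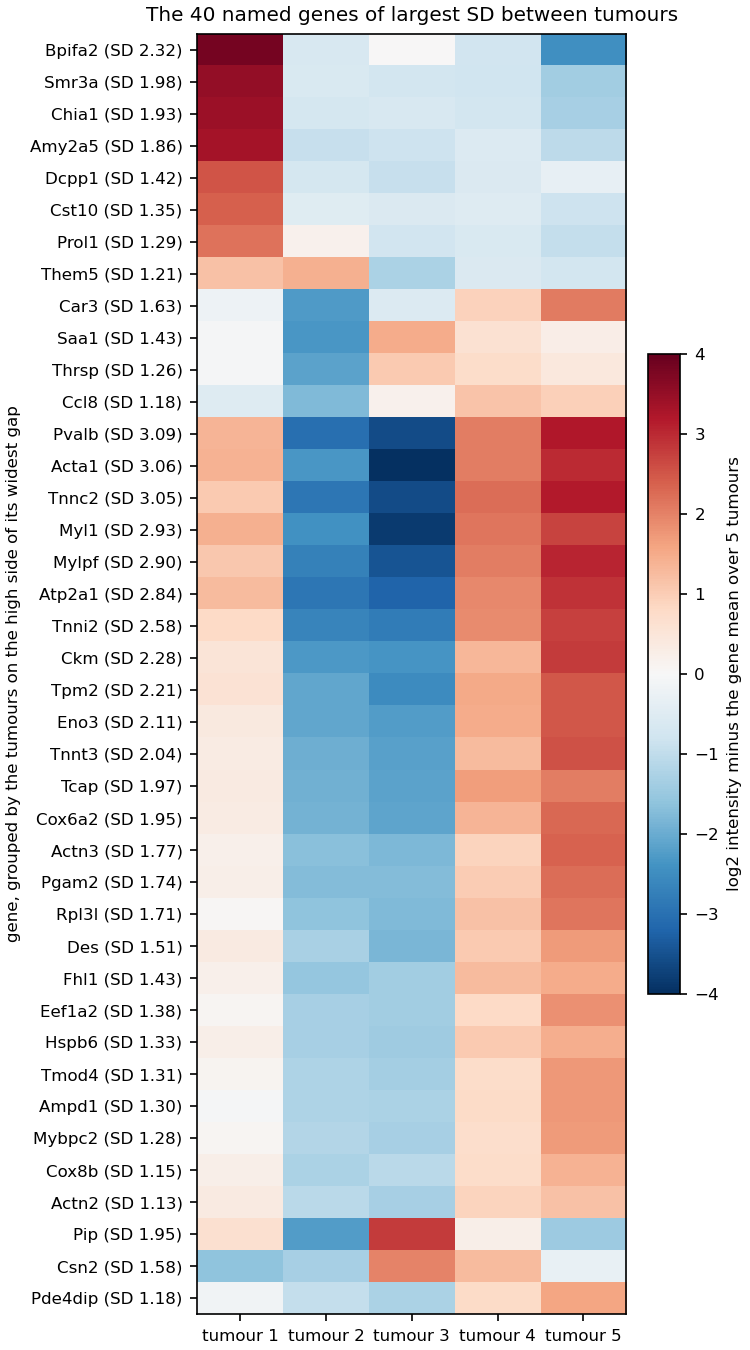
Log2 intensity minus the gene mean over the 5 tumours, for the 40 named genes of largest SD, grouped by the tumours on the high side of each gene's widest gap. A block of muscle genes is high in tumours 1, 4 and 5, a block of salivary-type genes is high in tumour 1 alone, and Car3, Saa1, Thrsp and Ccl8 are lowest in tumour 2.

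Skeletal muscle genes spread most widely. Of 34 contractile entries 32 had a probe and 16 lay above 300, and 15 of these had an SD above 1. Their list mean was 10.58, 7.91, 7.47, 11.36 and 12.13 in tumours 1 to 5, a 25.2-fold range with an SD of 2.09. Members pass 300 through the tumours where they are high, and over all 32 members with a probe the mean was 9.04, 7.57, 7.33, 9.61 and 10.12. Tumours 1, 4 and 5 were high and tumours 2 and 3 low. Parvalbumin, Pvalb, the calcium buffer of fast fibres, had intensities of 4374, 212.1, 142.4, 7032 and 15727 (SD 3.09, 110-fold from lowest to highest). Skeletal alpha-actin, Acta1, was at 12.93, 9.23, 7.43, 13.61 and 14.54 on the log2 scale (SD 3.06, 138-fold). In tumour 3 both were near the median probe of the array, so background may limit these folds. The troponin C gene of fast fibres, Tnnc2, was at 11.86, 7.92, 7.22, 13.03 and 13.96. The myosin light chain gene Myl1 was at 12.90, 9.07, 7.66, 13.64 and 14.19, and its second bright probe had the same highest and lowest tumour (12.56 and 7.14).

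The order of the tumours was nearly fixed within this list: 14 of the 16 genes ran 5, 4, 1, 2, 3 from high to low, an order that 0.937% of all ordered genes had. Other genes of the 25 most variable shared the split, with tumours 1, 4 and 5 on the high side: Mylpf (SD 2.90), the calcium pump gene Atp2a1 (2.84), the troponin genes Tnni2 (2.58) and Tnnt3 (2.04), tropomyosin Tpm2 (2.21), titin-cap Tcap (1.97), the actinin gene Actn3 (1.77), desmin Des (1.51) and the muscle ribosomal protein gene Rpl3l (1.71). A second Tpm2 probe had an SD of only 0.36, so the bright probe alone carried that gene's pattern. In all, 26 of the 55 genes with an SD above 1 were high in tumours 1, 4 and 5, and 21 of the 26 stood in a muscle list.

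Energy genes of muscle went along. Of 15 entries 11 lay above 300, 10 of them highest in tumour 5, where 11% of all genes were highest. The creatine kinase gene Ckm was at 10.08, 7.25, 7.18, 10.89 and 12.34 (SD 2.28), and the muscle enolase gene Eno3 at 9.97, 7.51, 7.34, 11.06 and 12.06 (2.11). The muscle isoforms of cytochrome oxidase, Cox6a2 (SD 1.95), and of phosphoglycerate mutase, Pgam2 (1.74), had tumour 5 highest and tumour 3 lowest as well. Slow and cardiac isoforms were mostly dim: 2 of 11 with a probe passed 300, myoglobin Mb at 9.34, 8.50, 9.44, 9.91 and 10.37 and Csrp3 at 8.97, 7.50, 7.24, 8.90 and 9.18. Whether muscle tissue was dissected with tumours 1, 4 and 5 was not tested.

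Salivary-type secretory genes were high in tumour 1. Bpifa2, the parotid secretory protein, had intensities of 17726, 803.2, 1282, 743.9 and 230.7 (SD 2.32 on the log2 scale, 76.8-fold). Smr3a, a submandibular gland peptide gene, was at 12.30, 8.20, 8.07, 8.02 and 7.42 (SD 1.98). In both genes tumour 1 lay far above the other 4, which differed less among themselves. The chitinase gene Chia1 was at 12.03, 7.91, 7.97, 7.87 and 7.27 (SD 1.93), and its second probe also had tumour 1 highest, at 11.63. Amylase, read by the Amy2a5 probe, was at 12.96, 8.73, 8.83, 9.10 and 8.59 (SD 1.86). Its 2 other probes were at the level of the median probe and cannot say more, and near-identical amylase copies may share the signal. Dcpp1 (11.27 in tumour 1, at most 8.42 elsewhere) and Prol1 (11.59 in tumour 1, at most 9.59 elsewhere) had the same side high.

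Of 34 entries for salivary and other exocrine proteins, 30 had a probe and 14 lay above 300, 11 with an SD above 0.5. The list mean was 12.89 in tumour 1 and 11.67, 11.78, 11.73 and 11.49 in tumours 2 to 5 (SD 0.56). Without tumour 1 its SD was 0.125. Over all 30 members with a probe the mean was 10.16 in tumour 1 and 9.25 to 9.41 elsewhere. The members did not share a tumour: 5 were highest in tumour 1 (11.9% of all genes were), 4 in tumour 3, 3 in tumour 2 and 2 in tumour 4. The lysozyme gene Lyz2, also in the macrophage list, was among the last. Of the 9 genes with an SD above 1 that were high in tumour 1 alone, 4 stood in this list: Bpifa2, Smr3a, Dcpp1 and Prol1. Chia1 and Amy2a5 were not in it and have no part in the list mean. Whether gland tissue beside the tumour was taken with it was not tested.

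Milk genes were highest in tumour 3 and next in tumour 4. Beta-casein, Csn2, the main casein of mouse milk, had intensities of 1080, 1310, 13130.3, 7969 and 2711 (SD 1.58 on the log2 scale, 12.2-fold). Tumours 3 and 4 were high, tumour 5 intermediate and tumours 1 and 2 low. Alpha-casein, Csn1s1, was at 11.18, 10.58, 12.46, 12.52 and 11.59 (SD 0.84), and whey acidic protein, Wap, at 11.43, 10.76, 12.72, 12.03 and 11.78 (0.72). Lao1, an amino acid oxidase of milk, was at 8.13, 7.63, 9.92, 8.76 and 7.86 (0.92). Prolactin-inducible protein, Pip, which both mammary and salivary glands secrete, was at 11.27, 8.42, 13.43, 10.89 and 9.20 (SD 1.95), again highest in tumour 3. Of 24 milk entries 21 had a probe and 15 lay above 300, of which 8 were highest in tumour 3 (20% of all genes were) and 6 had an SD above 0.5. The list mean was 10.80, 10.73, 11.60, 11.30 and 11.00 (SD 0.37). The caseins and Wap were thus high in tumours other than the one with high salivary-type genes.

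Prolactin reaches casein genes through STAT proteins, whose site reads TTCNNNGAA. In the 250 bases before its start, Csn2 held 1 such match, shown in capitals (GRCm38.p6, chr5:87699426-87699675, minus strand, RefSeq). It is printed because this gene had the widest spread of the milk list.
Csn2: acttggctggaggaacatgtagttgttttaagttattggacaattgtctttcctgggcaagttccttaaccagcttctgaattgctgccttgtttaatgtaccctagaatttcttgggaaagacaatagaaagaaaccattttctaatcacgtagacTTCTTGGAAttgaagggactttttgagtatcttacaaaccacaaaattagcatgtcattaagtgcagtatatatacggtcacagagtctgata
The match is a description of the sequence: 2 of the 10 milk genes with a promoter held the motif on either strand, and 8.13% of all 27025 genes did.

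Saa1 and the keratinocyte genes above 300 were lowest in tumour 2. Serum amyloid A, Saa1, an acute phase protein, had intensities of 11284, 2300.4, 32807, 17825 and 13919 (SD 1.43 on the log2 scale, 14.3-fold). Its second probe had the same ends, 9.99 in tumour 3 and 7.64 in tumour 2. Of the keratinised skin list 3 of 18 genes with a probe lay above 300, all lowest in tumour 2, where 31.1% of all genes were lowest. Dermokine, Dmkn, was at 11.60, 9.59, 12.58, 11.44 and 10.66 (SD 1.12), and keratin 10, Krt10, at 9.89, 8.76, 9.38, 10.23 and 9.74 (0.56). Neutrophil genes above 300 numbered 4 of 17, with a list mean of 11.69 in tumour 2 and 12.21 to 12.30 in the others (SD 0.263, and 0.041 without tumour 2). S100a8 among them was at 11.44, 9.93, 11.42, 11.92 and 11.50 (SD 0.76), while Ltf and Lcn2, which mammary epithelium also makes, varied less (0.32 and 0.08).

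**Figure D3:**
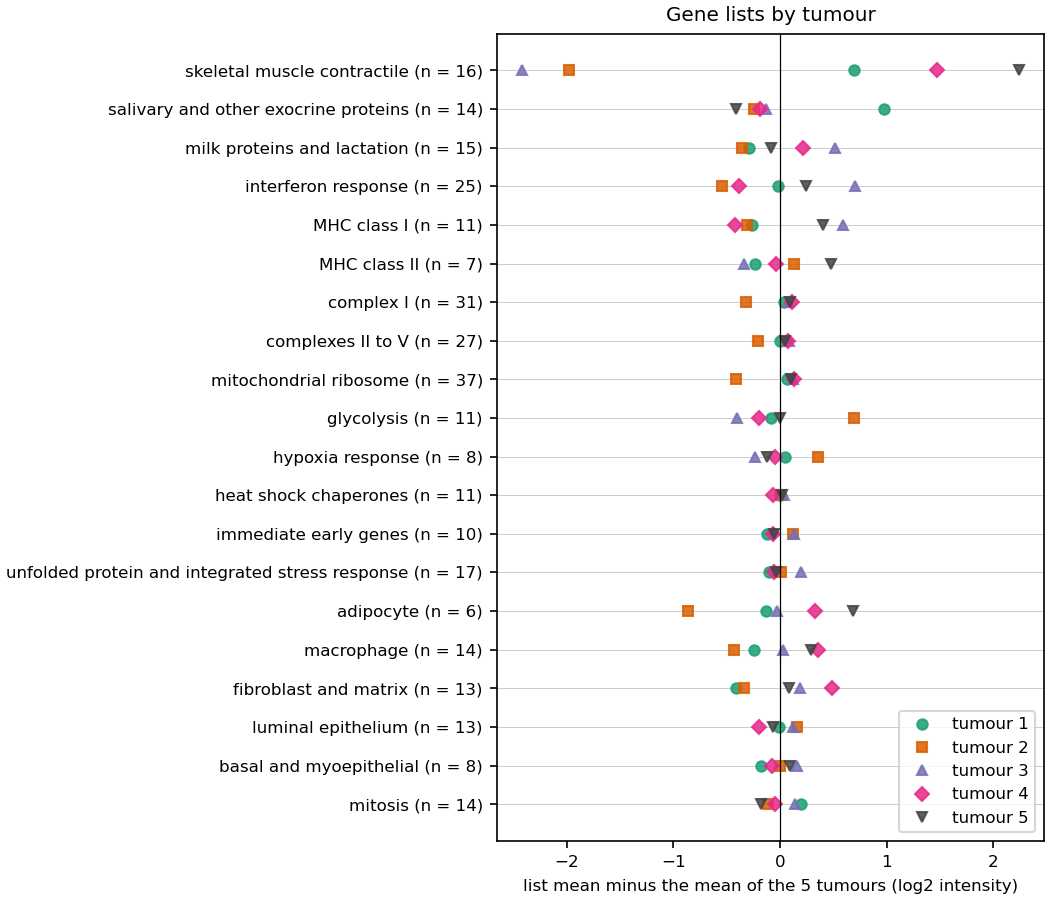
Mean of each gene list in each tumour, minus the mean of the 5 tumours (log2 intensity); n is the number of list members above 300. Contractile genes of muscle span 4.65 log2 units, exocrine genes set tumour 1 apart, and complex I, complexes II to V and the mitochondrial ribosome set tumour 2 below the other 4.

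Means of the respiratory chain and the mitochondrial ribosome were lower in tumour 2 and close to equal in the other tumours. Complex I, the first enzyme of the respiratory chain, had 37 entries, 35 with a probe and 31 above 300. Of these 31, 26 were lowest in tumour 2, where 31.1% of all genes were lowest. The complex I mean was 11.84, 11.49, 11.88, 11.92 and 11.90 (SD 0.18), and the SD was 0.033 without tumour 2. The subunit gene Ndufs4 was at 12.48, 11.52, 12.31, 12.60 and 12.39 (SD 0.43), and Ndufa7 at 12.51, 11.67, 12.18, 12.60 and 12.52 (0.39). Also below every other tumour in tumour 2 were Ndufb9 (7.75) and Ndufb3 (10.60). Complexes II to V had 27 of 35 genes with a probe above 300, 18 of them lowest in tumour 2, and a list mean of 12.36, 12.14, 12.44, 12.43 and 12.40 (SD 0.12, and 0.037 without tumour 2). Cytochrome c, Cycs, was at 11.10, 10.55, 11.26, 11.38 and 11.30 (0.33), and the ATP synthase subunit gene Atp5h at 11.29, 10.57, 11.06, 11.29 and 11.38 (0.33). Cox6c had its own pattern, with 11.03 in tumour 4 and 9.54 to 10.28 elsewhere.

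The mitochondrial ribosome showed the same step. Of 43 genes with a probe 37 lay above 300, and 30 of them were lowest in tumour 2, where 31.1% of all genes were lowest. Its mean was 10.62, 10.15, 10.68, 10.69 and 10.67 (SD 0.23), and its SD without tumour 2 was 0.030. Mrpl30, a large subunit protein, was at 10.87, 9.85, 10.73, 10.83 and 10.72 (SD 0.43), and Mrpl11 at 9.84, 9.03, 9.96, 10.11 and 9.94 (0.43). Mrpl46 (10.37 in tumour 2, 11.19 to 11.27 elsewhere) and Mrpl21 (10.20 against 10.85 to 11.21) were alike. None of the 37 had an SD above 0.5, so this was a small step in many genes, at a median SD of 0.258 against 0.193 over all genes. Cytosolic ribosomal protein genes were lowest in tumour 2 in 20 of 28, with a list mean of 13.45 there and 13.58 to 13.73 elsewhere (SD 0.118, and 0.072 without tumour 2). The step was not shared by all mitochondrial metabolism: enzymes of the citrate cycle and pyruvate dehydrogenase had a list mean of 10.08 in tumour 2, within the 9.92 to 10.14 of the others, and fatty acid oxidation a mean of 10.05, within 10.01 to 10.38.

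Glycolytic genes ran the other way and were highest in tumour 2. Of 16 entries 12 had a probe and 11 lay above 300, 10 of them highest in tumour 2, against 38.6% of all genes. On average the list was at 11.22, 11.99, 10.90, 11.10 and 11.30 (SD 0.41, and 0.175 without tumour 2). Phosphofructokinase of liver type, Pfkl, had intensities of 3967, 9436, 3530, 3423 and 3525 (SD 0.63 on the log2 scale), and pyruvate kinase, Pkm, 4135, 8877, 3418, 3785 and 4462 (0.54). In both the other 4 tumours lay close together. Brain-type aldolase, Aldoc, was at 11.67, 12.94, 10.61, 11.59 and 11.51 (SD 0.83), with tumour 3 low as well, and platelet-type phosphofructokinase, Pfkp, at 9.40, 10.61, 9.05, 9.07 and 9.37 (0.64). The exception was Aldoa, the aldolase that muscle also uses, which was highest in tumour 5 (12.65) and lowest in tumour 3 (10.83).

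Hypoxia genes had tumour 2 highest in 5 of 8 genes above 300, where 38.6% of all genes were highest, and tumour 3 lowest in 5, where 15.6% of all genes were lowest. Their list mean was 9.56, 9.86, 9.27, 9.47 and 9.39 (SD 0.22, and 0.121 without tumour 2). The carbonic anhydrase gene Car12 was at 12.24, 13.13, 11.43, 11.71 and 11.67 (SD 0.68), Car9 at 8.53, 9.19, 7.96, 8.40 and 8.38 (0.45), and the glucose transporter gene Slc2a1, which is also in the glycolysis list, at 10.31, 11.00, 9.92, 10.20 and 10.24 (0.40). In each of these 3 genes tumour 2 was highest and tumour 3 lowest. The HIF prolyl hydroxylase gene Egln3 was at 9.97, 10.64, 10.06, 9.79 and 10.02 (0.32).

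**Figure D4:**
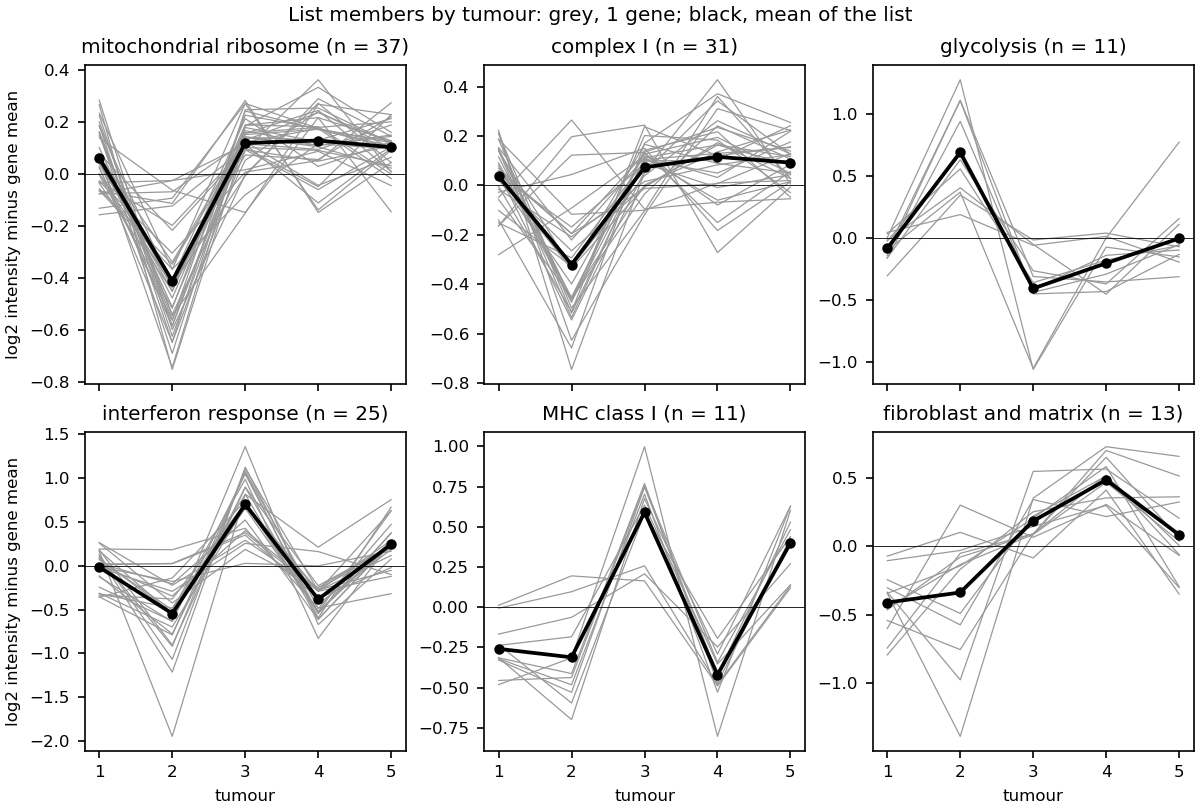
Log2 intensity minus the gene mean in each tumour, for the members above 300 of 6 lists; each grey line is 1 gene and the black line the list mean. The means of complex I and the mitochondrial ribosome dip and that of glycolysis peaks in tumour 2, interferon and MHC class I genes peak in tumour 3, with a smaller peak in tumour 5, and matrix genes peak in tumour 4.

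Interferon response genes were highest in tumour 3. Many genes that interferons switch on carry the interferon-stimulated response element near their start, searched here on both strands as GAAA, then 2 bases of any kind, then GAAA. Of 25 list members above 300, 19 had a RefSeq promoter, and 9 of the 19 (47.4%) held the motif in the 250 bases before the start, against 936 of 27025 genes (3.46%) in all and 142 of 4370 (3.25%) among those above 300. Members with an SD above 0.5 held it in 8 of 12, and members up to 0.5 in 1 of 7. The same split was not made over all genes, and a link between motif and spread was not tested. The 4 members of largest SD that hold it are printed with the matches in capitals, overlapping matches being joined, as examples. Ifi27l2a, the member of largest SD (1.13), is not among them. The regions in GRCm38.p6 are chr4:156200819-156201068 (Isg15, minus strand), chr12:26456453-26456702 (Rsad2, minus), chr19:34583279-34583528 (Ifit3, plus) and chr5:120887614-120887863 (Oas1g, minus).
Isg15: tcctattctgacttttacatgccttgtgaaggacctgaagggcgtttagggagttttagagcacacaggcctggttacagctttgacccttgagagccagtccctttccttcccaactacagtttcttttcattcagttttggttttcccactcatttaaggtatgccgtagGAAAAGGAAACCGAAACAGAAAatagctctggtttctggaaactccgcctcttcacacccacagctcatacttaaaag
Rsad2: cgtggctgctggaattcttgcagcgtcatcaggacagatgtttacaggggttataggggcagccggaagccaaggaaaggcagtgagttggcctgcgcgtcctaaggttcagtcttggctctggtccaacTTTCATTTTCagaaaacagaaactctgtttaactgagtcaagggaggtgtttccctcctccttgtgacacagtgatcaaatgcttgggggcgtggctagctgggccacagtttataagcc
Ifit3: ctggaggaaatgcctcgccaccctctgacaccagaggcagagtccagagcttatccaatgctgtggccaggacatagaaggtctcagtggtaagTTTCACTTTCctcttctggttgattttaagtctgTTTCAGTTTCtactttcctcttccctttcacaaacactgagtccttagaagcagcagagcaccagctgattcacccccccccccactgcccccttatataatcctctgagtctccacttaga
Oas1g: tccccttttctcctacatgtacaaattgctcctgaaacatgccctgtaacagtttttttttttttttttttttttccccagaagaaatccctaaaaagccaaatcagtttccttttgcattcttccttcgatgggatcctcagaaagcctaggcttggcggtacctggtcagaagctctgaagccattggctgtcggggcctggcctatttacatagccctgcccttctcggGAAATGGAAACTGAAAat
A match is a stretch of letters and no evidence of binding in these tumours.

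Of 47 interferon entries 44 had a probe and 25 lay above 300. Of these 23 were highest in tumour 3, where 20% of all genes were highest. Lowest in tumour 2 were 15 (31.1% of all genes), and lowest in tumour 4 were 10 (22%). The list mean was 9.99, 9.47, 10.71, 9.63 and 10.26 (SD 0.50), so that tumours 3 and 5 lay above tumours 1, 4 and 2. Ifi27l2a was at 10.61, 8.49, 11.26, 10.65 and 11.20 (SD 1.13), with tumour 2 far below the rest. Isg15, a ubiquitin-like modifier, had intensities of 1288, 514.7, 2607, 850.1 and 1657 (SD 0.90 on the log2 scale, 5.07-fold). Rsad2, the antiviral protein viperin, was at 9.68, 9.17, 11.16, 9.13 and 9.88 (0.83), with tumour 3 alone high. Ifit3, which binds viral RNA complexes, was at 9.59, 9.16, 11.02, 9.35 and 10.62 (0.82), with tumours 3 and 5 high. The commonest order was 3, 5, 1, 4, 2, held by 8 of the 25, and by 1.09% of all ordered genes. Of the 25 members 15 had an SD above 0.5, and without tumour 2 the SD of the list mean was 0.456.

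MHC class I genes, which present peptides to CD8 T cells and respond to interferon, were high in tumours 3 and 5. Of 14 genes with a probe 11 lay above 300, 9 of them highest in tumour 3 (20% of all genes) and 7 lowest in tumour 4 (22%). Averaged over the list they were at 10.21, 10.16, 11.06, 10.05 and 10.87 (SD 0.46). H2-K1 was at 8.83, 9.00, 10.31, 8.51 and 9.91 (SD 0.76), and H2-D1 at 12.40, 12.20, 13.48, 12.31 and 13.26 (0.59). The immunoproteasome genes Psmb9 (9.31, 8.92, 10.30, 9.33 and 10.25) and Psmb8 (11.14, 10.97, 12.16, 10.93 and 12.08) had tumours 3 and 5 nearly level. H2 genes are similar to each other, and their probes may share signal. MHC class II differed: 6 of its 7 genes above 300 were highest in tumour 5, where 11% of all genes were highest. Its list mean was 9.83, 10.19, 9.72, 10.03 and 10.54 (SD 0.32, and 0.209 without tumour 5). The invariant chain gene Cd74 (11.93, 12.92, 11.61, 12.07 and 12.61) and H2-Ab1 (11.48, 12.08, 11.25, 11.50 and 12.47) had tumours 2 and 5 high, and tumour 3, the highest for class I, was lowest for both.

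Stress lists other than hypoxia had list means with an SD of 0.04 (heat shock) to 0.15 (NRF2 and glutathione). The SD was 0.12 for complexes II to V and 0.18 for complex I. Heat shock chaperones had 11 of 17 genes with a probe above 300, a list mean between 9.98 in tumour 4 and 10.08 in tumour 3 and an SD of 0.04 (0.018 without tumour 4), and their members did not move together. Hspb8, a small heat shock protein gene, was highest in tumour 3 (11.02, 9.83 to 10.39 elsewhere). Hspe1, the mitochondrial chaperonin partner, was lowest in tumour 2 (8.02, 8.75 to 9.18 elsewhere). Bag3, a co-chaperone gene, was highest in tumour 2 (11.18), and so was Hspb1 (10.14). The heat shock element, searched on either strand as GAA, TTC and GAA with 2 bases of any kind between neighbours, was in 2 of 9 promoters of the list and in 0.514% of all. Hspb6, a small heat shock protein gene that is abundant in muscle, is not in this list. Its SD was 1.33, and it followed the muscle genes.

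Immediate early genes, which switch on within minutes of a stimulus, had a list mean of 10.01, 10.26, 10.27, 10.07 and 10.08 (SD 0.12) over 10 of 22 genes with a probe. Of the 10, 4 were highest in tumour 2 (38.6% of all genes), 4 in tumour 3 (20%) and 2 in tumour 5 (11%). Ier3, an early gene of growth factor signalling, was at 11.89, 13.08, 12.12, 11.59 and 11.79 (SD 0.58), and the zinc finger factor Egr1 at 10.86, 11.45, 10.33, 10.31 and 10.64 (0.47), both highest in tumour 2. Dusp1, a phosphatase of MAP kinases, was at 9.27, 9.92, 10.65, 10.29 and 10.13 (0.51), and Ccn2, a matricellular growth factor gene, at 11.45, 11.07, 12.19, 11.97 and 11.21 (0.49), both highest in tumour 3. The unfolded protein and integrated stress list had tumour 3 highest in 10 of 17 genes above 300, against 20% of all genes. Its list mean was 10.48 in tumour 3 and 10.18 to 10.30 elsewhere. Among its members Asns, asparagine synthetase, was at 10.14, 10.28, 10.79, 9.80 and 9.99 (0.38). Atf4, the factor at the head of the integrated stress response, was at 9.95, 9.87, 10.62, 10.59 and 10.31 (0.35), with tumours 3 and 4 level, and the stress gene Nupr1 at 11.58, 11.39, 12.32, 12.11 and 11.98 (0.38). p53 targets had a list SD of 0.06, but Cdkn1a, the cell cycle inhibitor p21, was at 9.60, 10.35, 8.58, 8.80 and 8.83 (0.74), high in tumours 1 and 2. The list of NRF2 targets and glutathione genes had a mean of 10.61, 10.76, 10.81, 10.90 and 11.02 over 7 of 17 genes with a probe. Gpx3 led it, at 9.26, 10.08, 9.34, 10.64 and 10.91 (0.74).

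The means of fat and macrophage genes were highest in tumours 4 and 5 and lowest in tumour 2, and the mean of matrix genes was highest in tumour 4, next in tumour 3 and lowest in tumour 1. Adiponectin, Adipoq, a hormone of fat cells, had intensities of 437.9, 197.2, 590.2, 655.2 and 911.8 (SD 0.84 on the log2 scale). The adipocyte list had 6 of 18 genes with a probe above 300, and a mean of 9.76, 9.02, 9.86, 10.21 and 10.57 (SD 0.58, and 0.371 without tumour 2). Over all 18 members with a probe the mean was 8.21, 7.88, 8.20, 8.37 and 8.55. The widest member of the list, the carbonic anhydrase gene Car3 (9.71, 7.67, 9.38, 10.85 and 12.00), is a gene of muscle as well. Lipoprotein lipase, Lpl, was at 10.08, 8.98, 10.02, 10.33 and 10.74 (0.65). The probes of Fabp4 and Plin1, which define fat cells, were not above 300. Thrsp, a regulator of lipid synthesis, was at 11.43, 9.35, 12.51, 12.21 and 11.90 (SD 1.26), again lowest in tumour 2, and the genes of fatty acid and cholesterol synthesis had a list mean of 9.93 in tumour 3 and 9.61 to 9.66 elsewhere.

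Of 21 macrophage genes with a probe 14 lay above 300. Of these, 7 were highest in tumour 4 (18.5% of all genes) and 5 in tumour 5 (11%), and 8 were lowest in tumour 2 (31.1%). Macrophage means were 9.56, 9.37, 9.83, 10.16 and 10.09 (SD 0.34). The chemokine gene Ccl8 was at 9.15, 7.91, 9.82, 10.80 and 10.62 (SD 1.18), and the lectin gene Mgl2 at 7.98, 7.50, 8.51, 9.34 and 9.11 (0.77). Arginase 1, Arg1, ran differently and was highest in tumour 3, at 10.01, 10.98, 12.64, 11.13 and 10.92 (0.95). Matrix genes had 13 of 24 above 300, 11 of them highest in tumour 4, where 18.5% of all genes were highest. Matrix means were 8.92, 8.99, 9.51, 9.81 and 9.41 (SD 0.37). The small proteoglycans Dcn (10.49, 9.44, 11.18, 11.56 and 11.48) and Lum (8.45, 8.24, 9.08, 9.69 and 9.50) and the microfibril gene Mfap5 (8.98, 8.34, 9.86, 9.88 and 9.52) had tumours 3, 4 and 5 above tumours 1 and 2. The widest gap lay below these 3 tumours in Lum, while in Dcn and Mfap5 it left tumour 2 alone low. Among the collagens, the gene Col6a1 was at 8.58, 9.28, 9.42, 9.98 and 9.39. Haemoglobin genes were lowest in tumour 3: Hbb-bs was at 12.62, 11.72, 10.49, 12.97 and 12.75 (SD 1.02), and Hba-a1 at 12.05, 11.64, 9.92, 12.27 and 12.31. By the widest gap, tumours 1, 4 and 5 were on the high side for 15 of 16 contractile genes. Of the 265 genes with an SD above 0.5, 33 (12.5%) had that split. Fat and haemoglobin genes split differently. For 4 of 6 fat genes tumour 2 alone was low, as it was for 57 of the 265 (21.5%). For Hbb-bs and Hba-a1 tumour 3 alone was low, as it was for 10 of the 265 (3.77%). How much of each tissue a sample held was not tested.

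The epithelial lists varied less. Luminal markers had 13 of 19 genes with a probe above 300 and none with an SD above 0.5, and the list mean lay between 10.02 in tumour 4 and 10.38 in tumour 2 (SD 0.15). Keratin 8, Krt8, which marks luminal cells, was at 12.43, 12.95, 12.81, 12.29 and 12.40 (0.29), so the luminal signal of a mammary tumour was strong in every sample, although the probes of Epcam, Esr1 and Pgr were not above 300. The luminal transcription factor Gata3 was at 9.92, 10.63, 9.75, 10.05 and 10.30 (0.34). Kit, a receptor of luminal progenitors, was at 11.82, 12.28, 11.49, 11.72 and 11.46 (0.33), and Krt18, the partner of keratin 8, at 11.49, 11.96, 11.75, 11.16 and 11.37 (0.31). These 4 genes were highest in tumour 2. Of all 13, 6 were highest in tumour 2 (38.6% of all genes), 6 in tumour 3 (20%) and 1 in tumour 1. Basal markers had a list mean of 10.20, 10.37, 10.53, 10.30 and 10.47 (0.13), but smooth muscle actin, Acta2, which vessels and fibroblasts also make, was at 11.29, 12.10, 13.06, 11.84 and 12.51 (0.67), and the myosin light chain kinase gene Mylk at 9.29, 10.26, 10.78, 9.84 and 10.63 (0.61). In both tumour 3 was highest and tumour 1 lowest. Keratin 17, Krt17, was highest in tumour 1, at 10.30, 9.84, 9.34, 9.11 and 9.29 (0.49). Mitosis genes had a list mean of 9.77, 9.46, 9.71, 9.52 and 9.39 (SD 0.16), with 7 of 14 highest in tumour 1 (11.9% of all genes) and 6 lowest in tumour 5 (16.4%). The centromere histone gene Cenpa was at 12.49, 11.44, 12.17, 12.33 and 11.79 (0.43) and Birc5, survivin, at 10.89, 9.93, 10.65, 10.55 and 10.30 (0.37), both lowest in tumour 2. DNA replication genes had an SD of 0.12 and were lowest in tumour 5 in 9 of 15.

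Sirt6 itself varied about as much as a typical gene. Its brightest probe, ILMN_2684909, had intensities of 358, 399, 317, 291 and 300 in tumours 1 to 5, or 8.49, 8.64, 8.31, 8.19 and 8.23 on the log2 scale (SD 0.19, 1.37-fold), and 48.7% of genes had a lower SD. The probe is dim, near the intensity limit. Tumour 2 was highest and tumour 4 lowest. The second probe, ILMN_2684910, was at 8.09, 8.27, 8.07, 7.79 and 8.01 and ran in the same order. The third, ILMN_2671176, was at 7.68, 7.85, 7.84, 7.67 and 7.76, and it shared the highest and the lowest tumour but ran 2, 3, 5, 1, 4. How the signal divides between the added and the endogenous alleles was not analysed here. Of the other sirtuins, Sirt3, Sirt5 and Sirt7 lay above 300 (SD 0.26, 0.17 and 0.16). Sirt3 was lowest in tumour 2 (8.88), as were 2 of the 4 sirtuins above 300 in all, against 31.1% of all genes.

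With 5 tumours no correlation with Sirt6 was computed, and its relation to other genes is given as tumour orders. Of the 120 possible orders, that of Sirt6 (2, 1, 3, 5, 4) was shared by 167 of the 5306 other genes (3.15%), the second most common order, and the opposite order by 113 (2.13%), the 11th. The median order held 28 genes and the range was 8 to 177, while 76 genes with tied tumours had no order. Orders with tumour 2 highest held 2017 genes (38.0%) in all. Without tumour 2, 248 genes (4.67%) ran as Sirt6 did and 219 (4.13%) opposite, ranks 8 and 10 among 24 orders, and the 2 counts were then close. Of the 265 genes with an SD above 0.5, 8 (3.02%) had the Sirt6 order and 13 (4.91%) the opposite one.

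**Figure D5:**
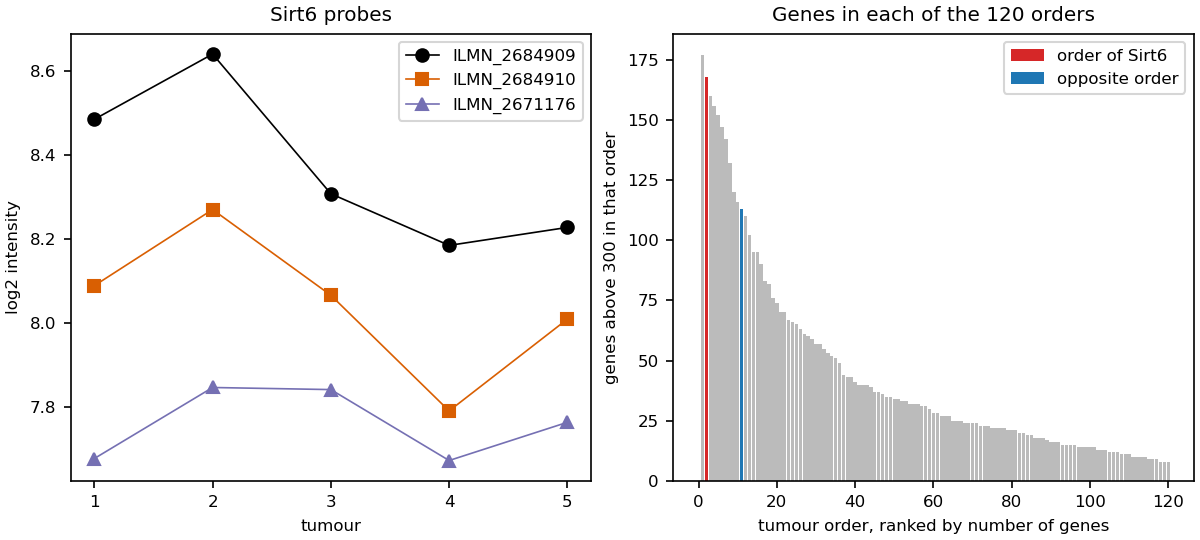
Left, log2 intensity of the 3 Sirt6 probes in each tumour. Right, number of genes above 300 in each of the 120 possible tumour orders, ranked; the red bar is the order of Sirt6 (168 genes with Sirt6 itself) and the blue bar the opposite order (113 genes).

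The genes of largest SD in the Sirt6 order were Ccnd1, Pfkl, Tcaf1, Gabrp and Aplp2. Cyclin D1, Ccnd1, which drives entry into the cell cycle, was at 12.34, 13.46, 11.78, 11.37 and 11.65 (SD 0.83). Tcaf1, a partner of TRP channels, was at 9.84, 10.73, 9.37, 9.30 and 9.34 (0.61), Gabrp, a GABA receptor subunit gene, at 9.11, 9.53, 8.74, 8.27 and 8.31 (0.54) and Aplp2, an amyloid precursor-like protein gene, at 11.99, 12.88, 11.89, 11.44 and 11.81 (0.53). In Ccnd1, Pfkl, Tcaf1 and Aplp2 the widest gap lay between tumour 2 and the rest. Opposite to Sirt6 ran Ccl8, Cd209f, Dcn, Spon2 and Mgl2. Cd209f, a lectin gene of the dendritic cell family, was at 8.32, 7.58, 8.35, 9.62 and 9.61 (0.89), and Spon2, a matrix protein gene, at 8.56, 8.15, 8.92, 9.90 and 9.84 (0.78). Ccl8 and Mgl2 stand in the macrophage list and Dcn in the matrix list. In all, 5 of 14 macrophage genes and 2 of 13 matrix genes ran opposite to Sirt6, against 2.13% of all genes. The part of macrophage and matrix content in these orders was not tested.

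At 3.15% and 2.13% of all genes, lists of this size hold few genes of either order whatever their programme, and small counts say little of a list. None of the 16 contractile, 37 mitochondrial ribosome, 25 interferon, 11 MHC class I or 14 exocrine genes above 300 had the order of Sirt6 or its opposite. Complex I had 0 of 31 in the Sirt6 order and 3 in the opposite one, complexes II to V 0 and 2 of 27. Of the glycolytic genes, the class SIRT6 is known to repress, 1 of 11, Pfkl, ran in the order of Sirt6 and none in the opposite order. Tumour 2 had the highest Sirt6 level and the highest glycolytic mean, and it was the highest tumour for 38.6% of all genes. Tumour 4, with the lowest Sirt6, had a glycolytic mean of 11.10, and tumour 3 one of 10.90. Whether glycolytic genes depend on the Sirt6 level was not tested.

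A large genomic clone may carry genes beside Sirt6 with it. Among the 10 protein-coding genes on each side in RefSeq GRCm38.p6, 12 had a probe and 5 lay above 300, of which 0 had the order of Sirt6 (3.15% of all genes) and 4 were highest in tumour 2 (38.6%). These 5 genes are too few to set against such shares. Tle6, the nearest of the 5, a Groucho-family corepressor gene, was at 11.34, 11.44, 11.39, 11.20 and 11.12 (SD 0.13), and Tle5 at 11.12, 11.68, 11.19, 10.92 and 11.18 (0.28). Tle2 was the exception, highest in tumour 1, at 8.99, 8.74, 8.24, 8.79 and 8.38 (0.31). Gna11, a G protein gene, was at 9.92, 10.43, 10.07, 10.08 and 9.95 (0.20), and Nfic, a transcription factor gene, at 8.73, 9.17, 8.63, 8.55 and 8.66 (0.24).

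Second probes give a check within the arrays. Of genes with an SD above 1, 20 had a second probe above 300, and in 16 of them both the highest and the lowest tumour were the same on the second probe, while 19 shared the highest. The median SD of the second probes was 1.14 against 1.31 for the first. Probes of a gene read the same RNA sample, so they bear on the probe and not on the tumour.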

How the data were processed

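Total RNA of mammary tumours was amplified to biotinylated cRNA and read on Illumina arrays, per the labels' protocols. As deposited, each value is a linear probe intensity, and the authors' background treatment and normalization steps do not appear in any source read for this work. Between arrays, values of equal rank differed by at most 1.08%, the lowest intensity was 116.7 and the highest 40180.3, so the arrays share their quantiles and no background subtraction was visible. No further scaling was applied.

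Of 45281 probes, 34885 had a single gene symbol in the platform annotation, 18 several and 10378 none. For each gene the probe of highest mean over the 5 PyMT/SIRT6 tumours was kept. Intensities were put on the log2 scale. Genes were kept at a mean intensity above 300, and the SD over the tumours used n − 1. A list mean is the mean of its members above 300. A gene list entry without a probe was matched through a RefSeq synonym of a single gene. For each gene the tumours were ordered by value and split at the widest gap. Python 3.11.15 with numpy 2.4.6 and pandas 2.3.3 was used, and limma 3.58.1 in R 4.3.3 for normexp. The steps were tested on simulated data. With a single group of 5 arrays no test was run, and their number limits the precision.

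Named genes were Sirt6, the 25 genes of largest SD and the 5 of lowest, up to 4 members of largest SD of each list described, up to 5 genes in the order of Sirt6 and up to 5 in the opposite order, and the 2 genes on each side of each limit. Clone-named and predicted genes took no place. Others are defining markers, the neighbours of Sirt6, the other sirtuins and Oas1g for its promoter. Hspb6, Pkm, Prol1 and the genes under other observations were named after their values were seen. The members and the gene lists were chosen with earlier results of these data known. Promoters came from RefSeq (GRCm38.p6), which holds 32851 of them. Alternatives were other intensity minimums, an offset of 50, normexp with an offset of 16, the mean of a gene's probes, the median of list members, the median absolute deviation and each tumour left out. Chosen after the data were seen were the order counts with a tumour left out and the splits under these settings.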

Additional observations from a re-analysis of the deposited data

Results flagged for a closer look

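Of 32 list means, 3 Sirt6 probes and 150 named genes, each over the 5 tumours, 6, 0 and 19 had a tumour whose gap to the nearest other tumour was above 0.71 of the whole range. Chance does this in about 1 in 20 groups, and most of the genes were named for their spread. Among lists, tumour 1 was high for salivary and other exocrine proteins (12.89, next 11.78). Tumour 2 was low for complex I (11.49, next 11.84), complexes II to V (12.14, next 12.36), the mitochondrial ribosome (10.15, next 10.62) and neutrophil genes (11.69, next 12.21). Tumour 3 was high for fatty acid and cholesterol synthesis (9.93, next 9.66).

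Among genes, tumour 1 was high for Amy2a5 (12.96), Chia1 (12.03), Cst10 (10.47), Dcpp1 (11.27), Dnase1 (9.77) and Smr3a (12.30). The next tumour of these 6 genes lay between 7.40 (Dnase1) and 9.10 (Amy2a5). Tumour 2 was high for Pfkl (13.20), Pfkp (10.61), Pkm (13.12) and Nfic (9.17). It was low for Ifi27l2a (8.49), Mup2 (9.43), S100a8 (9.93), Ndufs4 (11.52), Mrpl11 (9.03), Mrpl30 (9.85) and Mrpl46 (10.37). Tumour 3 was low for Hba-a1 (9.92), and tumour 5 was high for Rsph3a (8.42, next 8.22), a gene just under the intensity limit.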

How the results depend on the processing

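Of 256 list SDs recomputed under settings that keep all tumours, 24 moved by over 1.5 times: 8 at a minimum of 150, 6 at 600, 7 by the median of the members and 3 by the mean of a gene's probes. With a tumour left out 17 of 160 did, 10 of them without tumour 2, among them the mitochondrial ribosome (0.030), neutrophil (0.041) and hypoxia lists (0.121). Without tumour 1 these were exocrine (0.125), citrate cycle (0.062) and endothelial genes (0.108), without tumour 3 fatty acid synthesis (0.024) and the unfolded protein list (0.049), without tumour 4 heat shock (0.018) and without tumour 5 MHC class II (0.209). Those that moved by more than their own value were the NRF2 list by the median of its members (0.694) and the sirtuins likewise (0.091), and at a minimum of 600 heat shock chaperones (0.085), nerve genes (0.532) and sirtuins (0.199). With normexp, 84 genes had an SD above 1 and 439 above 0.5, tumour 2 stood alone high in 95 and alone low in 109, and with the mean of a gene's probes alone high in 32. With a tumour left out, 51 to 64 genes had an SD above 1 and 149 to 325 above 0.5. The lowest of these was without tumour 2. The Sirt6 order held 301 genes at a minimum of 150, 104 at 600 and 248 to 680 with a tumour left out, and the opposite order 231, 56 and 219 to 494. Another minimum changes the number of genes counted, 4 tumours have fewer orders, and otherwise the cause was not tested. Splits were not run with a tumour left out. No paired analysis was possible because a single group was described. Dim probes limit Sirt6, and the number of tumours limits every SD.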

Other observations

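Besides Chia1 and Amy2a5, the high values of tumour 1 reached other secretory genes outside the exocrine list. Those given here were all named after their values were seen. The kallikrein genes Klk1b26 (10.33, 8.30, 9.40, 8.14 and 7.77 in tumours 1 to 5) and Klk1b27 (10.04, 8.33, 8.72, 8.02 and 7.74) belong to a family of similar genes of the submandibular gland, so the values of single members are uncertain. The cystatin gene Cst10 was at 10.47, 7.60, 7.49, 7.56 and 7.23, the nuclease gene Dnase1 at 9.77, 7.40, 7.40, 7.30 and 7.20 and the mucin-like gene Mucl2 at 10.25, 8.80, 8.16, 8.16 and 7.51. In each of them tumour 1 was highest and tumour 5 lowest.

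Other wide genes lay outside the lists. Mup2 and Mup5, of the major urinary protein family of near-identical pheromone carriers, were at 11.70, 9.43, 12.14, 12.15 and 11.63 and at 10.28, 9.92, 12.71, 11.08 and 10.64, both lowest in tumour 2. Neuropeptide Y, Npy, was at 9.06, 9.91, 8.05, 9.74 and 10.94, and the apolipoprotein gene Apoc1, which macrophages express, at 9.77, 9.08, 9.40, 11.39 and 11.26, with tumours 4 and 5 high. Papln, a matrix proteoglycan-like gene, was the 1 gene with an SD above 1 that was high in tumour 2 alone, at 10.73, 12.14, 9.49, 9.86 and 9.98. Them5, an acyl-CoA thioesterase gene, was high in tumours 1 and 2 (10.21 and 10.44) and at 7.76 to 8.45 elsewhere. Of 10396 probes without a single gene symbol, 908 had a mean above 300 and 6 an SD above 1. The widest, ILMN_1215932, was at 9.86, 8.74, 13.26, 10.85 and 9.76, highest in tumour 3.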
